A study of Homo sapiens with 6 samples.

Results

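The WNT pathway genes described here are 63 of the 53712 gene names in the deposited count table. They match a list of WNT ligands, Frizzled receptors, co-receptors, R-spondins and their receptors, secreted inhibitors, the destruction complex with beta-catenin, and TCF/LEF transcription factors. The matching rule itself uses no measured value, but the genes and their roles were chosen with earlier results of these data known. RNA was sequenced from H9, an established human embryonic stem cell line, kept in RSeT, a medium for naive-type pluripotent cells. All cells had also received DZNep (10 nM), which inhibits S-adenosylhomocysteine hydrolase, and TSA (5 nM), trichostatin A, a histone deacetylase inhibitor, from 24 h after passage. With these came 2.5 µM of UNC1999, which blocks the Polycomb methyltransferases EZH2 and EZH1, or 2.5 µM of UNC2400, a weakly active N-methylated relative, each for 48 h. Each compound has 3 libraries, and no group lacks both compounds, so every difference below is UNC1999 minus UNC2400 on a background of DZNep and TSA. Separate cultures are not stated for the replicates, and p-values measure only how far these libraries vary, and that may be technical.

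WNT proteins are lipid-modified secreted ligands. They bind Frizzled receptors together with the co-receptors LRP5 or LRP6, which stops a cytoplasmic destruction complex (axin, APC, GSK3) from marking beta-catenin for degradation, so that beta-catenin can join TCF/LEF factors on DNA. R-spondins, acting through LGR receptors, keep the ubiquitin ligases RNF43 and ZNRF3 from removing Frizzled receptors, while DKK, SFRP, FRZB and NOTUM proteins act outside the cell to limit the signal. In human pluripotent cells the pathway is known for its part in self-renewal media and in the exit towards mesoderm and endoderm, and many developmental WNT genes are known Polycomb targets.

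Library totals ran from 29699441 to 42345448 counts, so a count of 0 allows up to 0.0718 to 0.104 CPM (counts scaled to a common library size) in a library, a limit for counting error only. Levels are CPM after scaling by the trimmed mean of M-values (TMM). Core pluripotency markers (10 of 10 at 1 CPM or more) summed to 7126 to 7204 CPM in UNC2400 and 6130 to 6763 CPM in UNC1999. The 16 naive markers, 11 of them at 1 CPM or more, summed to 432.5 to 444.1 and 387.9 to 403 CPM. Most of that was NLRP7 (160 and 92.2 CPM) and DPPA5 (140 and 116 CPM). Of 12 naive markers tested, 6 were higher and 4 lower, with a median log2 fold change of 0.29. KLF17, a defining naive marker, had 4, 10 and 2 counts in UNC2400 and 9, 21 and 11 counts in UNC1999, under 0.6 CPM in every library. The 10 trophoblast markers summed to 2.88 to 3.54 and 2.84 to 3.33 CPM, with CGB, VGLL1 and XAGE2 at 0 in all libraries, and the 9 mesoderm markers to 7.57 to 10.3 and 8.97 to 11.5 CPM; both pairs of ranges overlap. The 8 endoderm and hypoblast markers, with TTR at 0, summed to 40.5 to 41.6 and 26.3 to 29.8 CPM, nearly all of it PDGFRA (40.1 and 25.6 CPM). GATA4 rose from 0.291 CPM, near the low-count filter's cutoff of 0.297 CPM, to 0.754 CPM (log2 fold change 1.37). FOXA2 did not pass. The 8 neuroectoderm markers summed to 275 to 296 and 469 to 509 CPM, most of it NES (232 and 430 CPM); 2 were higher and 2 lower, and SOX1 and NEUROG2 were under 0.1 CPM. The 10 fibroblast or feeder markers summed to 272 to 302 and 181 to 197 CPM, with DCN, LUM and FAP under 0.1 CPM. Most of that was COL1A2 (137 and 85.5 CPM), THY1 (88.3 and 68.3 CPM) and COL1A1 (57.2 and 33.8 CPM). Of 5 tested, 4 were lower and 1, PDGFRB, was higher. THY1 is also on the list of primed markers. The part of these values in the results below was not tested; in bulk RNA, fewer cells of a type and less RNA per cell cannot be told apart.

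Of the 63 genes, 49 passed the low-count filter and were tested by edgeR's quasi-likelihood test, with p-values adjusted by Benjamini-Hochberg over all 17596 genes tested. At an adjusted p under 0.05, 15 were higher and 11 lower in UNC1999, and 23 did not pass. That is 53.1% of those tested, beside 52.7% of all genes (26.8% higher and 25.9% lower), so the share called was near the background. Their median log2 fold change was 0.02, as over all genes tested (0.02). Groups did not overlap for 15 genes in the higher and 13 in the lower direction, beside 60.6% of all genes in either. More than 2-fold changes were called for 6 genes upward and 1 downward, 14.3% of those tested beside 6.17% of all genes. Of these, WNT10B and DKK1 reached the filter's level only in UNC1999 and had to differ to be tested. Elsewhere, WNT3A, WNT7B and NOTUM reached it in all 3 UNC2400 libraries but only in 2, 1 and 0 UNC1999 libraries, and did not pass. By role, 5 of 10 Frizzled genes and 4 of 11 tested ligand genes were called higher and none lower, and both co-receptors and all 4 TCF/LEF factors were called lower. No test compared the roles, and with offsets for gene span, length and GC content FZD5, LRP6, TCF7L1 and TCF7L2 changed sign.

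**Figure D1:**
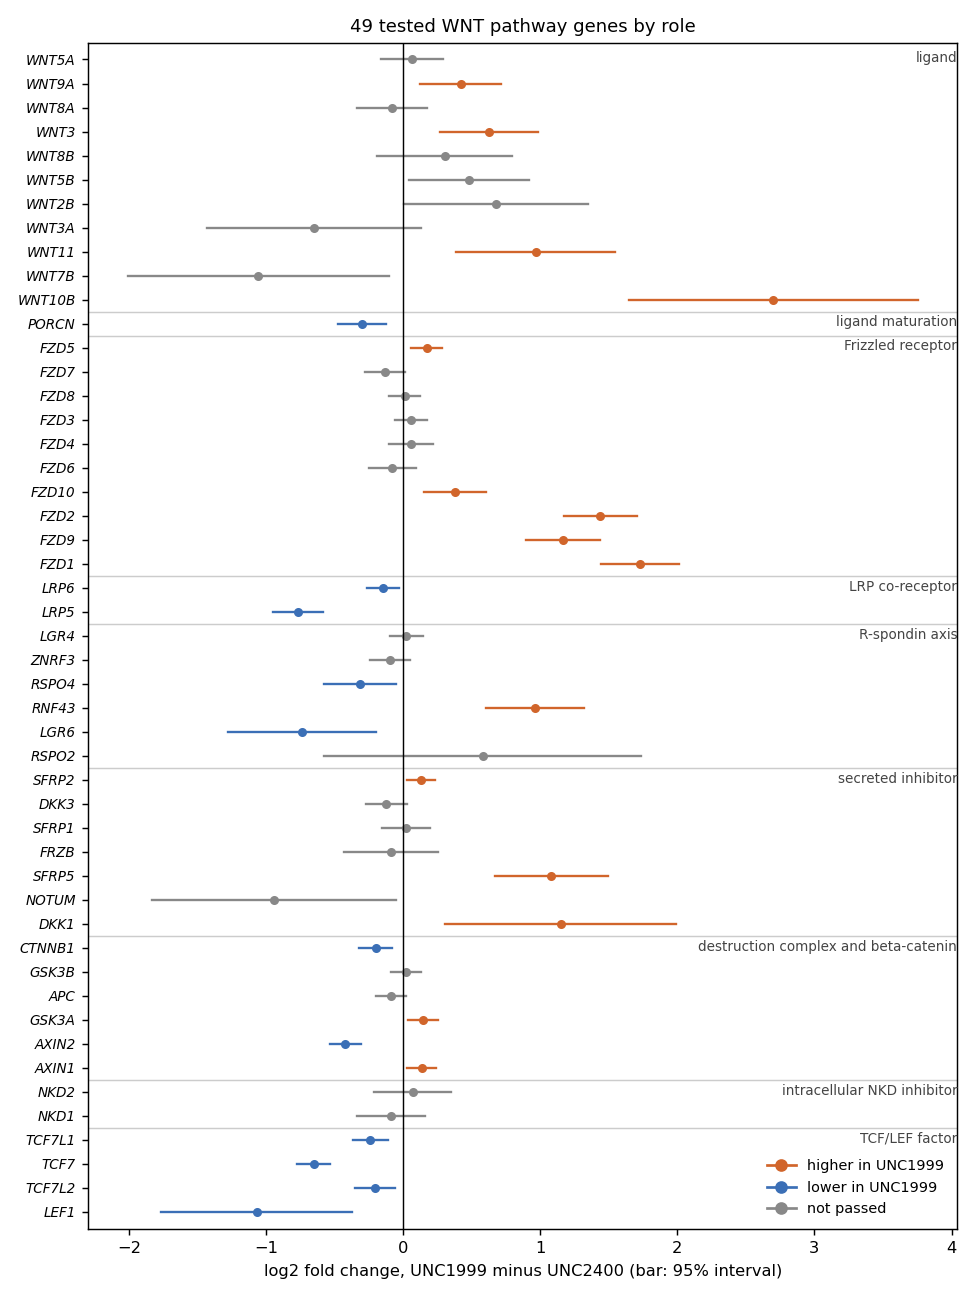
Log2 fold changes (UNC1999 minus UNC2400, x axis) of the 49 tested WNT pathway genes, grouped by role; points are edgeR estimates and bars 95% intervals, coloured by call at an adjusted p under 0.05. FZD1, FZD2, FZD9 and WNT10B lie farthest to the right and LEF1 farthest to the left among the genes that passed.

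Among the 10 Frizzled receptor genes, the 3 with the lowest UNC2400 levels per kilobase of exon rose more than 2-fold, and the abundant ones changed little. FZD1 stood at 2.01, 2.44 and 2.49 CPM in UNC2400 replicates 1 to 3 and at 7.43, 8.50 and 7.19 CPM in UNC1999 replicates 1 to 3 (log2 fold change 1.73 ± 0.13 SE, adjusted p = 3.35e-08). FZD2 went from 3.06, 3.33 and 3.18 CPM to 7.43, 9.21 and 9.37 CPM (log2 fold change 1.44 ± 0.13 SE, adjusted p = 1.17e-07). FZD9 went from 2.78, 3.04 and 3.02 CPM to 5.95, 7.11 and 6.81 CPM (log2 fold change 1.16 ± 0.13 SE, adjusted p = 1.28e-06). For these 3 genes all UNC1999 libraries lay above all UNC2400 libraries. FZD10 rose by 0.38 ± 0.11 (log2, SE; 6.90 ± 0.35 to 8.98 ± 0.97 CPM, n = 3 per group, SD) and FZD5 by 0.17 ± 0.05 (449 ± 20 to 506 ± 17 CPM, n = 3 per group, SD; adjusted p = 0.0141). The FZD5 call was lost without UNC2400 replicate 2 (adjusted p = 0.102), UNC2400 replicate 3 (0.0699) or UNC1999 replicate 3 (0.106). FZD8, FZD3, FZD4 and FZD6 had log2 fold changes of 0.01, 0.06, 0.06 and -0.08, with 95% intervals that lay within -0.25 and 0.22. FZD7 had a log2 fold change of -0.13 (95% interval -0.28 to 0.01); without UNC1999 replicate 1, which lay at 291 CPM beside 232 and 248 CPM for the other UNC1999 libraries, it was -0.25 (adjusted p = 0.000149).

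**Figure D2:**
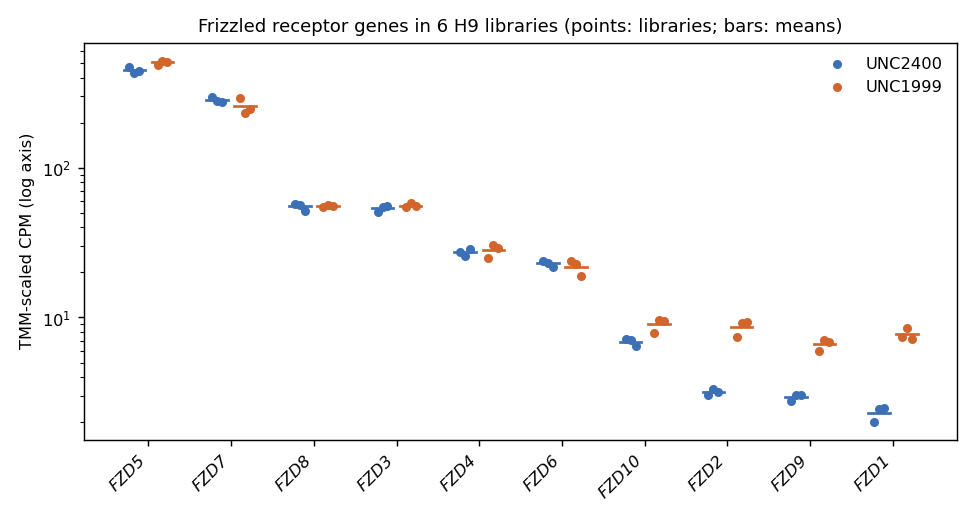
TMM-scaled CPM (log axis) of the 10 Frizzled receptor genes in each of 3 UNC2400 and 3 UNC1999 libraries, ordered by their UNC2400 mean; points are libraries and bars group means. FZD2, FZD9 and FZD1 sit between 2.01 and 3.33 CPM in UNC2400 and between 5.95 and 9.37 CPM in UNC1999, while FZD5 and FZD7 stay above 200 CPM in every library.

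Per kilobase of exon, FZD5 and FZD7 remained the leading receptor genes in both groups: FZD7 made up 42.4% ± 0.339 of the summed Frizzled level in UNC2400 and 36.9% ± 3.53 in UNC1999, and FZD5 38.8% ± 0.678 and 41.9% ± 2.29 (n = 3 per group, SD). FZD2 went from 0.877% to 2.29% of that sum, FZD9 from 0.732% to 1.58% and FZD1 from 0.193% to 0.615%. FZD1 was the lowest of the 10 in both groups per kilobase. The summed Frizzled level itself was 169 to 179 CPM per kilobase in UNC2400 and 177 to 184 in UNC1999, ranges that overlap.

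FZD1, FZD2, FZD7, FZD8, FZD9 and FZD10 each have a single exon in every GENCODE release 29 transcript; 4 of these 6 rose and none fell. Among 312 tested protein-coding genes with a single exon, 47.4% were higher and 4.17% lower, beside 27.5% and 29.9% of 13528 tested protein-coding genes with more exons. The part of gene structure in the Frizzled rises was not tested by itself. With offsets that remove trends of the counts with genomic span, exon length and GC content, FZD1, FZD2 and FZD9 rose by 1.44, 1.26 and 0.99 (log2; adjusted p = 4.46e-08, 5.03e-08 and 1.74e-06). Under the same offsets FZD10 was no longer called (0.14, adjusted p = 0.240), FZD5 went to -0.10 (0.163), and FZD7, FZD8 and FZD4 were called lower (-0.43, -0.17 and -0.19), while FZD3 was called higher (0.21). Only the rises of FZD1, FZD2 and FZD9 among the Frizzled genes were called in all 15 alternatives.

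The promoters of FZD1 and FZD9, which rose, and of FZD8, a single-exon receptor gene with no call, are shown because the 3 genes share a gene structure and differ in response; FZD8 was chosen after its values were seen. Each run is the 250 bases before the RefSeq start (build GRCh38.p14, gene strand, 5′ to 3′), with CG dinucleotides, the sites of CpG methylation and the hallmark of CpG islands, in capitals. They are at chr7:91264183-91264432 (plus strand) for FZD1, chr7:73433528-73433777 (plus strand) for FZD9 and chr10:35642297-35642546 (minus strand) for FZD8.
FZD1: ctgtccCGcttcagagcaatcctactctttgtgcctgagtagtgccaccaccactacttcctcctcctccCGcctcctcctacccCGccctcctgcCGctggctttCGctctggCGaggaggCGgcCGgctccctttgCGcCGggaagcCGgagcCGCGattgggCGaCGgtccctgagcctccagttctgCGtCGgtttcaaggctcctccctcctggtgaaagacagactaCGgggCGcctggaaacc
FZD9: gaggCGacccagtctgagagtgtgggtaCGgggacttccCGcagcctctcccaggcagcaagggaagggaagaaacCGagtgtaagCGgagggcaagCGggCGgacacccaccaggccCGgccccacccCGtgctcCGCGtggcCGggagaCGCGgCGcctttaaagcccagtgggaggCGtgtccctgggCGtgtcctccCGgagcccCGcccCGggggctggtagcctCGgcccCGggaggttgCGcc
FZD8: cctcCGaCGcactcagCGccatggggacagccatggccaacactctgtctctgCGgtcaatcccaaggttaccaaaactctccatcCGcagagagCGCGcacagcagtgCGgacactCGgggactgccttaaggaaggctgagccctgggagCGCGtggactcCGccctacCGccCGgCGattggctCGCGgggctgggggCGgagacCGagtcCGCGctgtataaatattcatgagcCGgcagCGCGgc
The printed runs hold 19, 23 and 24 CG dinucleotides. The 300-base windows from which they come (250 bases before to 50 after the start) hold 25, 31 and 31. For windows of that length the median was 14 over 35116 RefSeq windows and 28 over the richest window of each of 11158 tested genes. Windows were found for 44 of the 63 genes. The richest window of each gene held a median of 28 CG dinucleotides for the 11 higher, 31 for the 9 lower and 23 for the 13 genes that did not pass, and the ranges of the 3 sets overlapped (5 to 53, 9 to 52 and 4 to 49). No window was found for FZD2.

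Both LRP co-receptor genes fell; the difference between their changes was not tested. LRP5 stood at 47.9, 48.3 and 51.8 CPM in UNC2400 and at 34.3, 25.04 and 27.7 CPM in UNC1999 (log2 fold change -0.77 ± 0.09 SE, adjusted p = 1.47e-06), with no overlap. LRP6 went from 119, 106 and 109 CPM to 104, 98.3 and 98.9 CPM (log2 fold change -0.15 ± 0.05 SE, adjusted p = 0.0313). The groups did not overlap for LRP6 either, but its call was lost without UNC2400 replicate 1 (-0.10, adjusted p = 0.188), UNC2400 replicate 3 (0.0596), UNC1999 replicate 2 (0.0668) or UNC1999 replicate 3 (0.0790), and with the span, length and GC offsets its value was 0.08 (adjusted p = 0.198). LRP5, a long gene, kept its call with the offsets at -0.46 (adjusted p = 4.00e-05). Per kilobase, LRP5 made up 46.2% ± 2.17 of the summed co-receptor level in UNC2400 and 35.8% ± 2.98 in UNC1999 (n = 3 per group, SD).

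WNT ligand genes were expressed at low levels, and those that passed the test were higher in UNC1999. Of 19 ligand genes 11 were tested, of which 4 rose, none fell and 7 did not pass. That is 36.4% called, beside 52.7% of all genes (26.8% higher and 25.9% lower). WNT3, a ligand needed for primitive streak formation in the mouse, went from 2.47, 2.99 and 2.42 CPM to 3.42, 5.03 and 3.80 CPM (log2 fold change 0.63 ± 0.17 SE, adjusted p = 0.00485). WNT11, a ligand best known for beta-catenin-independent signals, went from 0.694, 0.551 and 0.431 CPM to 0.987, 1.14 and 1.15 CPM (log2 fold change 0.97 ± 0.28 SE, adjusted p = 0.00722). For WNT3 and WNT11 the groups did not overlap. WNT10B had 2, 2 and 3 counts in UNC2400 and 17, 13 and 19 counts in UNC1999, a ratio of 6.81 with an exact 95% counting interval of 3.07 to 17.8 (adjusted p = 0.000231). It reached the filter's level only in UNC1999 and had to differ to be tested, so its call adds no support to the direction of the ligands. WNT9A rose by 0.42 ± 0.14 (log2, SE; adjusted p = 0.0178) although UNC2400 replicate 3 (6.20 CPM) lay above UNC1999 replicate 1 (5.98 CPM). Its call was lost without UNC2400 replicate 1 (adjusted p = 0.0958), UNC2400 replicate 2 (0.0887) or UNC1999 replicate 2 (0.103).

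**Figure D3:**
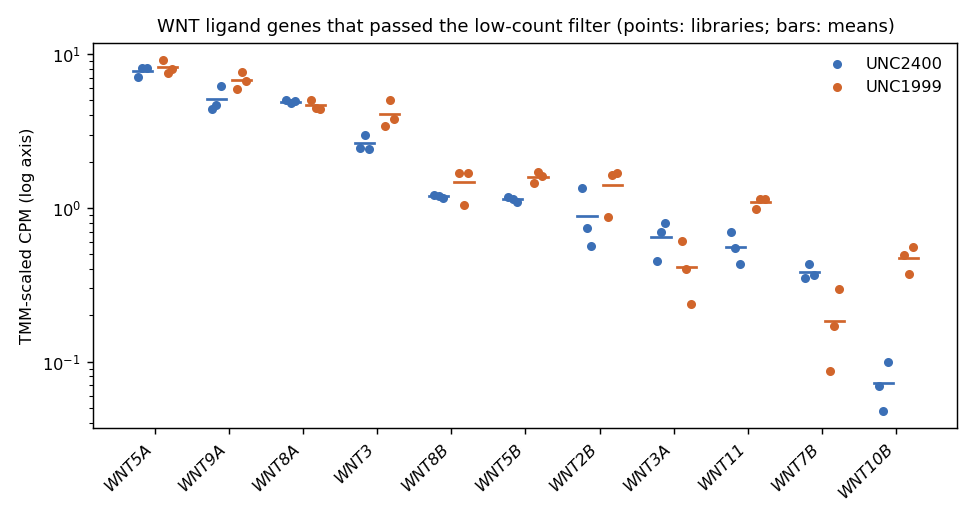
TMM-scaled CPM (log axis) of the 11 tested WNT ligand genes in each of 3 UNC2400 and 3 UNC1999 libraries, ordered by their UNC2400 mean; points are libraries and bars group means. WNT3, WNT5B, WNT11 and WNT10B show UNC1999 libraries above all UNC2400 libraries, and WNT7B shows them below.

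WNT5A and WNT8A, the ligand genes with the highest counts beside WNT9A, had log2 fold changes of 0.07 (95% interval -0.16 to 0.29) and -0.08 (-0.33 to 0.18). With the offsets WNT8A was called lower (-0.33, adjusted p = 0.0328). WNT5B (0.48, 95% interval 0.04 to 0.92; adjusted p = 0.0606) and WNT7B (-1.05, -2.01 to -0.10; adjusted p = 0.059) had groups that did not overlap but missed the threshold. WNT5B passed with the offsets (0.73, adjusted p = 0.00755) and with the filter at 1 CPM (0.48, adjusted p = 0.0422). Without UNC1999 replicate 3, WNT7B passed (-1.57, adjusted p = 0.0261). WNT2B (0.68, 0.01 to 1.35) passed without UNC2400 replicate 1 (1.07, adjusted p = 0.0176) or UNC1999 replicate 1 (0.91, adjusted p = 0.00599), and WNT3A (-0.65, -1.43 to 0.13) passed without UNC1999 replicate 1 (-1.05, adjusted p = 0.0347). WNT2B shares exon sequence on the opposite strand with ST7L, which rose by 0.32 (log2; adjusted p = 0.00585); the strand setting of the counting is not given, so reads of the pair cannot be told apart. WNT8B had a log2 fold change of 0.30 (-0.19 to 0.79).

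Per kilobase, WNT8A was the leading ligand gene in both groups, at 34.5% ± 1.31 of the summed ligand level in UNC2400 and 27.7% ± 2.08 in UNC1999 (n = 3 per group, SD), followed by WNT9A and WNT5A. In UNC2400 WNT9A (1.28 ± 0.245 CPM per kilobase) and WNT5A (1.23 ± 0.09, n = 3 per group, SD) did not differ beyond their spread. The summed ligand level was 7.78 to 8.18 CPM per kilobase in UNC2400 and 9.28 to 9.62 in UNC1999. The other 8 ligand genes were below the low-count filter: WNT2 had 0 counts in all 6 libraries, WNT1, WNT6 and WNT10A had 1 count each over all libraries, WNT4 had 12 and 20 counts over the UNC2400 and UNC1999 libraries, WNT9B 11 and 20, WNT16 22 and 16, and WNT7A 37 and 21. The WNT7A ratio was 0.552 with a counting interval of 0.307 to 0.968; this covers counting error only.

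PORCN, the acyltransferase that adds the lipid to WNT ligands, fell from 13.4, 13.9 and 14.3 CPM to 11.3, 10.7 and 11.9 CPM (log2 fold change -0.30 ± 0.08 SE, adjusted p = 0.00645), with no overlap. WLS, the carrier that takes lipid-modified ligands to the cell surface, went the other way, from 1.35 ± 0.00914 to 4.79 ± 1.23 CPM (n = 3 per group, SD; log2 fold change 1.82 ± 0.20 SE, adjusted p = 1.21e-06). WLS was singled out after its values were seen.

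In the R-spondin axis, the receptor-removing ligase RNF43 rose, while the R-spondin gene RSPO4 and the receptor gene LGR6 fell. RNF43 went from 2.64, 2.80 and 2.85 CPM to 3.92, 6.34 and 5.92 CPM (log2 fold change 0.96 ± 0.17 SE, adjusted p = 0.00015), and the groups did not overlap. It shares exon sequence with SUPT4H1 on the same strand, whose own log2 fold change was 0.003. LGR6 went from 1.46, 1.20 and 1.13 CPM to 0.609, 0.910 and 0.737 CPM (log2 fold change -0.74 ± 0.26 SE, adjusted p = 0.0233). The LGR6 call was lost without UNC2400 replicate 1 (adjusted p = 0.0957), UNC1999 replicate 1 (0.0591) or UNC1999 replicate 3 (0.0514), and with the offsets (-0.47, adjusted p = 0.143). RSPO4 went from 7.84 ± 0.19 to 6.30 ± 1.19 CPM (n = 3 per group, SD; log2 fold change -0.31 ± 0.12, SE; adjusted p = 0.0423). That call was lost in 9 of 15 alternatives, among them without UNC2400 replicate 1, 2 or 3 (adjusted p = 0.110, 0.0906 and 0.0774) and without UNC1999 replicate 2 or 3 (0.130 and 0.158).

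LGR4, the main R-spondin receptor gene here at 327 ± 5.4 and 332 ± 24 CPM (n = 3 per group, SD), barely differed (log2 fold change 0.02, 95% interval -0.10 to 0.14). Over 15 alternatives its log2 fold change ran from -0.06 to 0.15, and it was called higher in 1 of them. Per kilobase it made up 87.7% ± 0.188 and 88.7% ± 0.666 of the level summed over the axis (n = 3 per group, SD). ZNRF3, the partner ligase of RNF43, had a log2 fold change of -0.09 (95% interval -0.24 to 0.05). It was called lower without UNC1999 replicate 1 (-0.17, adjusted p = 0.0224) and higher with the offsets (0.18, adjusted p = 0.0207), so its direction is not settled by these libraries. RSPO2 did not pass (0.58, -0.57 to 1.74), and RSPO1, RSPO3 and LGR5 were below the filter, with 14 and 13, 15 and 9, and 4 and 3 counts over the UNC2400 and UNC1999 libraries. LGR5, a stem cell marker of the gut and a known WNT target, was thus near the limit of detection in both groups.

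Of 7 tested secreted inhibitor genes, 3 were called higher in UNC1999, none lower, and 4 did not pass. That is 42.9% called, beside 52.7% of all genes (26.8% higher and 25.9% lower). Among the 3 called, the one with the highest level changed least. SFRP5, a Frizzled-like decoy, went from 1.98, 2.28 and 2.32 CPM to 3.60, 4.06 and 6.31 CPM (log2 fold change 1.08 ± 0.20 SE, adjusted p = 0.000189), with no overlap. UNC1999 replicate 3 was the highest library; without it the log2 fold change was the lowest of its alternatives at 0.78 and still called. DKK1, which blocks LRP5 and LRP6, had 5, 9 and 9 counts in UNC2400 and 12, 20 and 21 counts in UNC1999, a ratio of 2.24 with an exact 95% counting interval of 1.35 to 3.83 (adjusted p = 0.0226). DKK1 reached the filter's level only in UNC1999 and had to differ to be tested, so its call adds no support to the direction of the inhibitors. The DKK1 call was lost in 7 of 14 alternatives, with DESeq2 (adjusted p = 0.0752), without UNC2400 replicate 1 (0.0908) or 2 (0.0853), and without UNC1999 replicate 2 (0.0680) or 3 (0.0996) among them. SFRP2 rose from 125 ± 3.1 to 137 ± 2.2 CPM (n = 3 per group, SD; log2 fold change 0.13 ± 0.05 SE, adjusted p = 0.0339). That call was lost without any single library (adjusted p from 0.0526 to 0.151) and went to -0.12 with the offsets.

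DKK3, SFRP1 and FRZB had log2 fold changes of -0.12, 0.02 and -0.09, with 95% intervals that lay within -0.43 and 0.25. NOTUM, an enzyme that removes the lipid from WNT ligands, had 44 counts over the UNC2400 and 23 over the UNC1999 libraries (log2 fold change -0.94, 95% interval -1.83 to -0.05; adjusted p = 0.0714), and its groups did not overlap. SFRP4 (6 and 10 counts), DKK2 (4 and 3) and DKK4 (0 and 1) were below the filter. SFRP2 made up 81.2% ± 0.696 of the summed inhibitor level per kilobase in UNC2400 and 81.7% ± 1.63 in UNC1999 (n = 3 per group, SD). SFRP2 is also on the list of primed markers, which summed to 1106 to 1167 CPM in UNC2400 and 1047 to 1088 CPM in UNC1999. PTPRZ1 (373 and 167 CPM) carried the lower sum; of 12 primed markers tested 7 were higher and 3 lower, with a median log2 fold change of 0.27.

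The promoters of SFRP5 and DKK1, the inhibitor genes that rose by more than 2-fold, are printed in the same way, with CG dinucleotides in capitals. They are at chr10:97772000-97772249 (minus strand) and chr10:52314031-52314280 (plus strand).
SFRP5: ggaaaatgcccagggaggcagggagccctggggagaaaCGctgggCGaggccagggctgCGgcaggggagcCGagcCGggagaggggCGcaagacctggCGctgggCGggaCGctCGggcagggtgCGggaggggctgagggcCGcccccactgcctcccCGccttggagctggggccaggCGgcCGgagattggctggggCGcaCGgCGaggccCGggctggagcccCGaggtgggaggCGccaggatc
DKK1: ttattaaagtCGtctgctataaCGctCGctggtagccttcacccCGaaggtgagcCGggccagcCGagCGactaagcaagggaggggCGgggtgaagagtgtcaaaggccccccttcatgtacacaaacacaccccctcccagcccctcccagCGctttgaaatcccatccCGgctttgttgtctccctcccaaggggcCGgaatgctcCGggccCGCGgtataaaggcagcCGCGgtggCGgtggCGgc
The runs hold 21 and 18 CG dinucleotides. The 300-base windows were searched on both strands for CTTTGAT and CTTTGTT, the core letters bound by TCF/LEF factors. DKK1 held CTTTGTT, on the plus strand. Of the other higher genes with a window, WNT3 held it too, and of the lower genes TCF7 and TCF7L2 each held it in a second window. In all, 4 of 55 windows of the WNT pathway genes (7.27%) held a match, beside 7.61% of all 35116 RefSeq windows. A match describes letters only.

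Among the destruction complex and beta-catenin, AXIN2, the feedback scaffold and a widely used WNT target, fell most. AXIN2 went from 57.0, 56.3 and 55.1 CPM to 43.6, 41.6 and 40.6 CPM (log2 fold change -0.42 ± 0.05 SE, adjusted p = 4.79e-06), and it was called in all 15 alternatives (-0.47 to -0.41). CTNNB1, which encodes beta-catenin, went from 611, 635 and 637 CPM to 573, 515 and 551 CPM (log2 fold change -0.20 ± 0.06 SE, adjusted p = 0.00617). The groups did not overlap for either gene. With the offsets CTNNB1 was no longer called (-0.14, adjusted p = 0.0779).

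AXIN1, the constitutive scaffold, went from 51.8, 52.2 and 51.0 CPM to 58.6, 55.4 and 56.4 CPM (log2 fold change 0.13 ± 0.05 SE, adjusted p = 0.033). GSK3A, one of the kinases of the complex, went from 67.0, 60.9 and 63.6 CPM to 70.0, 69.8 and 71.6 CPM (log2 fold change 0.14 ± 0.05 SE, adjusted p = 0.0272). Neither gene's groups overlapped, and both differences were small. AXIN1 lost its call in 8 of 15 alternatives, among them without any single library but UNC1999 replicate 2 (adjusted p from 0.0810 to 0.143). GSK3A lost its call without UNC2400 replicate 2 (adjusted p = 0.168), UNC2400 replicate 3 (0.0949) or UNC1999 replicate 3 (0.148), and went to -0.06 with the offsets. GSK3B went from 73.1, 66.5 and 67.2 CPM to 70.9, 69.9 and 69.1 CPM, a log2 fold change of 0.02 (95% interval -0.09 to 0.13). APC, the scaffold that binds beta-catenin, went from 71.4, 65.1 and 68.4 CPM to 65.0, 63.2 and 64.3 CPM, a log2 fold change of -0.09 (-0.20 to 0.02). With the offsets, these 2 long genes were called higher (GSK3B 0.36, adjusted p = 1.23e-05; APC 0.13, adjusted p = 0.0338). NKD1 and NKD2, intracellular inhibitors that bind Dishevelled, did not pass (-0.09, 95% interval -0.34 to 0.16, and 0.07, -0.21 to 0.35).

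All 4 TCF/LEF genes were called lower in UNC1999, beside 25.9% of all genes, but only TCF7 kept its call in every alternative. TCF7, which encodes TCF1 and is a WNT target as well as a mediator, went from 42.9, 43.8 and 47.1 CPM to 28.9, 27.8 and 28.5 CPM (log2 fold change -0.65 ± 0.06 SE, adjusted p = 1.38e-07). It was called in all 15 alternatives, from -0.69 to -0.62. TCF7L1, which encodes TCF3, mainly a repressor in pluripotent cells, went from 153, 139 and 147 CPM to 135, 117 and 120 CPM (log2 fold change -0.24 ± 0.06 SE, adjusted p = 0.00282). LEF1 went from 0.625, 0.958 and 0.630 CPM to 0.406, 0.341 and 0.324 CPM (log2 fold change -1.07 ± 0.33 SE, adjusted p = 0.0118). For these 3 genes the groups did not overlap.

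TCF7L2 went from 36.6 ± 2.1 to 31.8 ± 2.8 CPM (n = 3 per group, SD), with overlap (log2 fold change -0.20 ± 0.07, SE; adjusted p = 0.0208). Its call was lost without UNC2400 replicate 1 (adjusted p = 0.108), UNC1999 replicate 2 (0.0539) or UNC1999 replicate 3 (0.0887). LEF1 lost its call without UNC2400 replicate 2, its highest library (-0.81, adjusted p = 0.110), and it overlaps an antisense gene, LEF1-AS1, whose reads cannot be told apart without the strand setting. TCF7L1 and TCF7L2 span long stretches of the genome, and with the offsets their values were 0.11 (adjusted p = 0.104) and 0.04 (0.587), so their direction depends on that choice. Per kilobase, TCF7L1 made up 71.7% ± 0.838 of the summed TCF/LEF level in UNC2400 and 74.4% ± 0.637 in UNC1999, and TCF7 15.8% ± 0.987 and 12.3% ± 0.633 (n = 3 per group, SD).

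**Figure D4:**
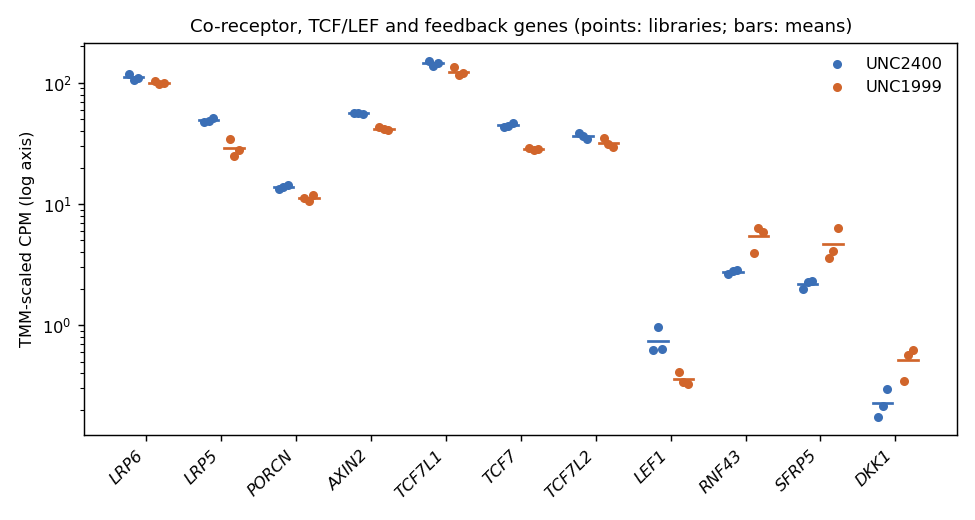
TMM-scaled CPM (log axis) of LRP co-receptor, PORCN, TCF/LEF and feedback or inhibitor genes in each of 3 UNC2400 and 3 UNC1999 libraries; points are libraries and bars group means. LRP5, AXIN2 and TCF7 are lower and RNF43 and SFRP5 higher in all 3 UNC1999 libraries than in any UNC2400 library.

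LEF1 is the one gene called lower by more than 2-fold. The 250 bases before its RefSeq start, at chr4:108166302-108166551 (minus strand), are printed with CG dinucleotides in capitals for comparison with those above.
LEF1: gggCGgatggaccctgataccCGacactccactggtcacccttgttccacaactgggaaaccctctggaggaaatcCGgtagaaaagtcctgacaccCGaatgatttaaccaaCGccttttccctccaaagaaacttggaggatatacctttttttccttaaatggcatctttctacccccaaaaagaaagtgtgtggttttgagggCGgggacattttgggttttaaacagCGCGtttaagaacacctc
This run holds 8 CG dinucleotides, fewer than the other runs printed. Other starts of LEF1 were not examined, so the count describes this run only.

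A list of WNT responder genes outside the 63 held 24 genes of the table. Of 21 tested, 12 rose, 3 fell and 6 missed the threshold, with a median log2 fold change of 0.31, beside 26.8% higher and 25.9% lower over all genes. SP5, a WNT target in many tissues and among those that missed it, stood at 0.710 ± 0.0482 and 0.878 ± 0.0517 CPM (n = 3 per group, SD), a log2 fold change of 0.31 (95% interval -0.24 to 0.86). SP8 went from 1.10 ± 0.309 to 3.81 ± 0.34 CPM, CDX4 from 16.8 ± 0.586 to 25.3 ± 1.08 CPM and ZNF703 from 5.97 ± 0.708 to 12.2 ± 2.08 CPM (n = 3 per group, SD). These are transcription factor genes. The part of WNT signalling in the rises and falls of the listed responders was not tested. The kinase receptor gene EPHB2 fell by 0.87 ± 0.09, the growth factor gene FGF4 by 0.65 ± 0.10 and ASCL2 by 1.06 ± 0.33 (log2, SE). With the offsets 7 of the listed responders were higher and 4 lower, beside 4185 and 4342 of the 17596 genes tested.

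Of 45 tested other genes of WNT transduction, 15 rose, 10 fell and 20 did not pass, with a median log2 fold change of 0.01, beside 52.7% of all genes called. The Dishevelled-binding gene DACT1 rose by 0.86 ± 0.06, and the nuclear beta-catenin cofactor genes PYGO2, BCL9L and BCL9 rose by 0.69 ± 0.06, 0.73 ± 0.06 and 0.50 ± 0.05 (log2, SE). The glypican gene GPC3 fell by 1.28 ± 0.08, the deubiquitinase gene USP34 by 0.72 ± 0.07, the secreted inhibitor gene WIF1 by 1.08 ± 0.14 and the Dishevelled gene DVL1 by 0.36 ± 0.06 (log2, SE). WIF1 thus fell while SFRP5 rose, although both encode secreted WNT-binding inhibitors. With the offsets 19 genes of this list were higher and 6 lower, beside 4185 and 4342 of the 17596 genes tested.

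In the beta-catenin-independent branch, CELSR genes, PTK7, SCRIB and ROR1 fell while PRICKLE and VANGL genes rose. Of 16 tested genes 5 rose, 6 fell and 5 did not pass, beside 52.7% of all genes called. PRICKLE1 rose by 1.01 ± 0.07, PRICKLE3 by 0.46 ± 0.10, VANGL1 by 0.52 ± 0.06 and VANGL2 by 0.28 ± 0.06 (log2, SE); these encode cytoplasmic and membrane proteins of planar cell polarity. PTK7, a pseudokinase co-receptor, fell from 146 ± 3.36 to 88.2 ± 11.4 CPM and ROR1, a WNT5A receptor, from 59.8 ± 4.0 to 34.8 ± 7.71 CPM (n = 3 per group, SD). The polarity genes CELSR3 and SCRIB fell by 0.61 ± 0.06 and 0.55 ± 0.06 (log2, SE). ROR2, the related receptor, did not pass (0.06, 95% interval -0.07 to 0.19). With the offsets 8 were higher and 6 lower, beside 4185 and 4342 of the 17596 genes tested.

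**Figure D5:**
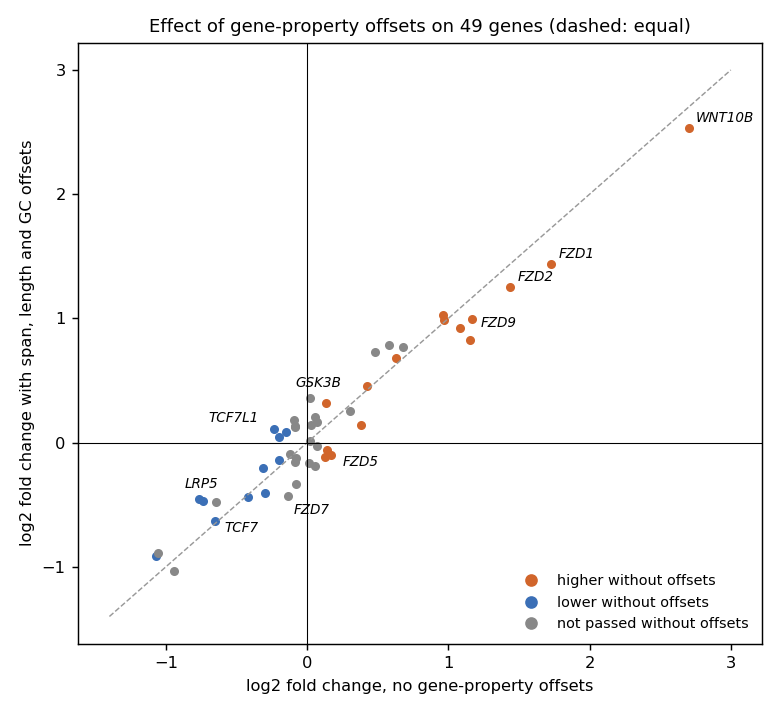
Log2 fold changes of the 49 tested WNT pathway genes without (x axis) and with (y axis) offsets for genomic span, exon length and GC content; each point is a gene, coloured by its call without offsets, and the dashed line marks equal values. FZD1, FZD2, FZD9, WNT10B, LRP5 and TCF7 keep their side of 0, while FZD5 and TCF7L1 cross it.

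Across the 26 called genes, 12 kept their call in every one of the 15 alternatives that gave a value: WNT3, WNT10B, WNT11, PORCN, FZD1, FZD2, FZD9, LRP5, RNF43, SFRP5, AXIN2 and TCF7. The other 14 lost it in at least 1, and 6 of the 26 changed sign in at least 1, in each case under the span, length and GC offsets. The number of genes called higher was 9 without UNC2400 replicate 2, and the number called lower was 7 without UNC2400 replicate 1.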

How the data were processed

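The labels' protocols give 200 ng of RNA per sample, poly(A) isolation and a directional library kit. The authors deposited whole-number counts per gene name, not normalized, in a table marked as freed of duplicates. Per the submitters' processing notes, the tools were TopHat2 2.0.13, Trim Galore 0.4.0, Subread 1.5.0 and featureCounts, and the build was hg19. Not given in the sources used here: their roles, the annotation, the strand setting and how multi-mapped reads were treated. Test scores, p-values and log2 fold changes in the authors' deposited comparison carry limma's column names; the log2 expression values they deposited are marked as batch-corrected and were not tested.

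Each gene was tested by edgeR 4.0.16 (R 4.3.3; two-sided quasi-likelihood test on TMM-scaled counts, group as the only term) after edgeR's default low-count filter (at least 0.297 CPM in 3 libraries and 15 counts in all). Benjamini-Hochberg adjustment ran over all genes tested, with a threshold of 0.05. Counting intervals are exact (95%), a count of 0 was taken to allow 3 counts, and both cover counting error alone because the reads carry no molecular identifiers. Exon lengths are joined exons of the GENCODE release 29 basic set (GRCh38), matched by name for all 63 genes and, with span and GC content, for 84.2% of tested genes. Promoters came from RefSeq (GRCh38.p14). The fits were run on simulated counts in which 200 genes were changed, as many upward as downward. At a simulated log2 fold change of 0.5, edgeR called 81% of the changed genes, and 6.32% of all its calls were false. Far more genes were called in the deposited counts, so the simulation does not check the scaling or the rate of false calls there. Values by library are given for members past the threshold with a log2 fold change of at least 0.5 in size and for the central components; up to 4 genes per direction with the smallest p are named from each list of other pathway genes, except for a result that is not reported here. Members, roles and lists were chosen with earlier results of these data known. Replicate numbers were not used as pairs. Alternatives were RLE and upper-quartile factors, DESeq2 1.42.0, limma-voom (limma 3.58.1), no or a stricter low-count filter (1 CPM in 3 libraries), a replicate block, offsets for span, length and GC, both together, and leaving out each library.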

Additional observations from a re-analysis of the deposited data

How the results depend on the processing

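Scaling, test and filter choices left the numbers of WNT pathway genes called within 1.5 times of 15 higher and 11 lower. Leaving out 1 library gave 9 to 14 higher and 7 to 13 lower. Over all genes, 9268 were called with all libraries and 10076 without UNC1999 replicate 1. Leaving out any other single library gave 7747 to 8358. Why UNC1999 replicate 1 stood apart in this was not tested. With the span, length and GC offsets, with or without the replicate block, 10 genes changed direction with a call on at least one side: APC 0.13 and 0.13, FZD4 -0.19 and -0.19, FZD5 -0.10 and -0.10, FZD8 -0.17 and -0.17, GSK3A -0.0579 and -0.0590, LRP6 0.0847 and 0.0852, SFRP2 -0.12 and -0.12, TCF7L1 0.11 and 0.11, TCF7L2 0.0442 and 0.0433, and ZNRF3 0.18 and 0.18 (log2); the cause was not tested. Other WNT transduction genes called lower numbered 6 with the offsets, non-canonical genes called higher 8 with the offsets and 8 with the block added, and responder genes called higher 7 and 7. Over all 17596 genes tested, 4185 were higher and 4342 lower with the offsets, and 4300 and 4520 with the block added. Of the 23 genes that did not pass, 14 were called and 10 changed sign in at least 1 alternative.

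Same-numbered libraries of the 2 groups had correlations of their deviations from the group means of 0.0237, 0.0839 and 0.124 for replicates 1 to 3, and the labels give no shared source, so the numbers were not taken as pairs. With the replicate block 15 members were higher and 12 lower, FZD7 being added (-0.14, adjusted p = 0.0319), and no other call changed among the members. UNC2400 replicates 2 and 3 correlated best with their own number; UNC2400 replicate 1 correlated best with UNC1999 replicate 2 (0.0618). Members under about 20 counts per library have wide intervals, so differences there were often not detectable at this depth.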

Other observations

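In the authors' deposited table of fold changes, 54 of the 63 WNT pathway genes have an entry, 49 of which were also tested here. Signs matched for 48 of the 49, FZD8 being the exception with values near 0 in both, and the largest difference in log2 fold change was 0.176. By the adjusted p-values of the authors' deposited table, a count of 24 of the 49 passed a threshold of 0.05, beside 26 here, and 23 passed in both. AXIN1, GSK3A and SFRP2 passed here only, with adjusted p-values of 0.0993, 0.0728 and 0.0955 in the authors' deposited table, and FZD7 passed there only (log2 fold change -0.16, adjusted p = 0.0495). Both analyses use the same libraries, so this is no independent check.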
